A study of Mus musculus with 4 samples.

Results

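The axon guidance genes of the adult mouse cerebellum were taken as the Eph receptors, ephrins, semaphorins, plexins, neuropilins, Slits, Robos, netrins, Dcc and Unc5 receptors that the deposited count table lists by symbol. Of 24015 genes in the table, 69 had such a symbol and 68 of these held at least 10 counts over the 4 libraries. The ephrin system had 22 members, the semaphorin system 31, the slit system 7 and the netrin system 8. The member nearest above the minimum was Efna4 with 23 counts, and Ntn5, with 8 counts, stood just below it and was left out.

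The study measured messenger RNA by sequencing in cerebella dissected at postnatal day 140 to 150 from mice heterozygous for an Arid1b knockout (HT) and from wild type littermates (WT), all of strain C57BL/6N. The protein made from Arid1b binds DNA as part of BAF, a complex that moves nucleosomes, and the stated purpose was to find expression changes in the heterozygotes. Each genotype had 2 libraries, 1 from a male and 1 from a female, and the labels name no treatment and do not say how the allele was made. The labels do not name individual animals either, so the spread behind each p-value is that of libraries and may be partly technical.

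Axon guidance molecules steer growing axons and migrating neurons. Ephrins are cell-bound and meet Eph receptors, which are receptor tyrosine kinases, where cells touch. Semaphorins act through plexins, with neuropilins as co-receptors for the secreted class. Slits are secreted repellents read by Robo receptors, and netrins attract through Dcc and repel through Unc5 receptors. In the developing cerebellum such cues place granule cells, Purkinje cells and their axons, and many of the genes stay active in the adult, where they are known for roles at synapses and in blood vessels.

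The libraries held 15950899 to 20616219 counts. CPM are counts scaled to the library total. Arid1b stood at 52.9 and 55.8 CPM in the male and female HT libraries, against 69.9 and 71.0 CPM in the male and female WT libraries, a log2 fold change of -0.37 ± 0.11 (SE; edgeR, adjusted p = 0.243). The counts cover the whole gene and show the transcript level, not the deletion. All of the 16 granule cell and 16 Purkinje cell markers were detected. So were all markers of the other cell types and regions looked at, so detection alone cannot tell the tissue. The female WT library was the lowest of the 4 libraries for 32.0% of the 15117 tested genes and the highest for 29.7%. Such shares were not counted for each of the others, so they alone do not set the female WT library apart. Of the 67 tested guidance genes, the log2 fold change turned sign in 12 without this library, shrank by over 1.5 times in 29 and grew by over 1.5 times in 8. Of 15073 tested genes with a value in both fits, 2930 turned sign, 3323 shrank and 3728 grew by as much. Some genes are given below with all 4 libraries and a p-value. For these, the value without the female WT library is added where it differs by over 1.5 times or in sign.

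No guidance gene passed the test for genotype. Of 67 members with enough counts to test, 33 had a higher and 34 a lower fitted level in HT, and with edgeR's quasi-likelihood test 0 passed at 0.05 after adjustment over all genes, where 0.0198% of all genes did. The smallest adjusted p was 0.215. DESeq2, limma-voom and edgeR's likelihood ratio test also called 0 members. With no low-count filter edgeR called 5 (Slit1, Epha5, Robo1, Epha10 and Epha8), where 2.92% of all genes were called. It called 25 without the male WT library, where 17.5% of all genes were called, and 2, Sema5a and Unc5c, without the female WT library, where 4.30% were. In such a fit the genotype that keeps both libraries alone sets the spread. At an unadjusted p under 0.05 there were 13 members, 9 of them higher in HT, where 5.22% of all tested genes were, and 4 lower, where 6.46% of all tested genes were. Efna4 had too few counts to test, with 7 and 10 counts in the male and female HT libraries, against 3 and 3 in the male and female WT libraries.

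The direction of the fitted values was counted by system. In the slit system 6 of 7 tested genes were higher in HT, with a median log2 fold change of 0.38. This median is the value of Robo3, which had 109 counts over the 4 libraries and an SE of 0.42. In the ephrin system 13 of 21 were higher, with a median of 0.11. In the semaphorin system 10 of 31 were higher and 21 lower, with a median of -0.065. The netrin system had 4 higher and 4 lower and a median of -0.034. Over all tested genes 51.1% were higher and the median was 0.0063. These counts and medians describe the lists and were not tested. The slit and ephrin medians rested on the female WT library: without it they were 0.079 and 0.015, and without the male WT library they were 0.63 and 0.28. The semaphorin median was -0.079 without the female WT library and -0.12 without the female HT library. The netrin median turned to 0.030 without the male HT library and was -0.11 without the female HT library.

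**Figure D1:**
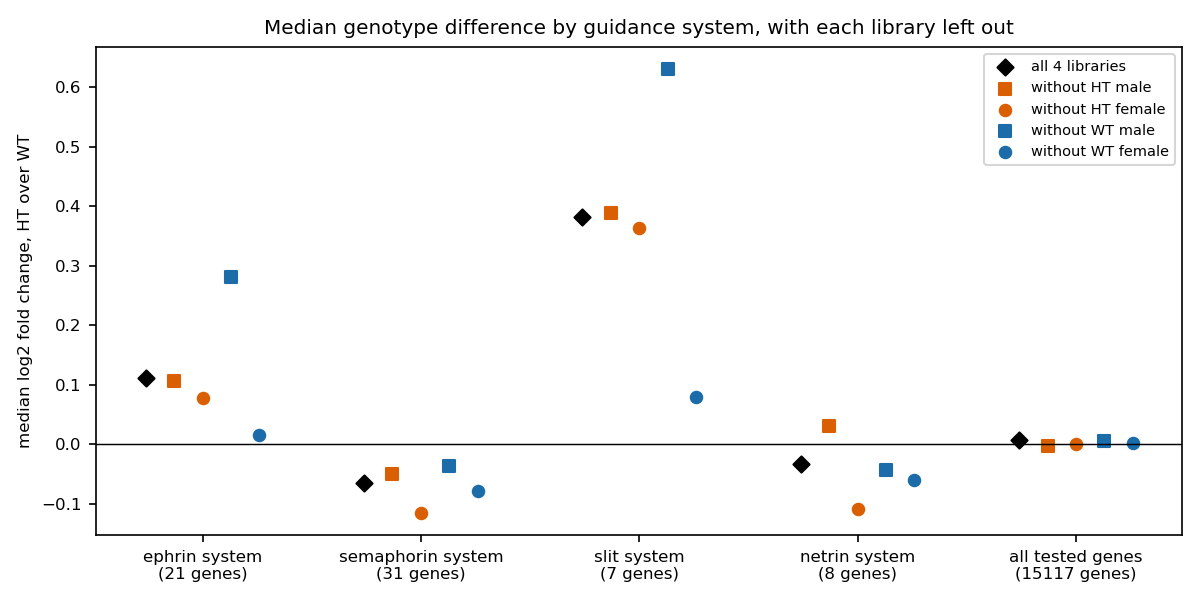
Median log2 fold change (HT over WT, vertical axis) of the tested genes of each guidance system and of all 15117 tested genes, for all 4 libraries (diamond) and with each library left out in turn. The slit median is 0.38 with all libraries, 0.079 without the female WT library and 0.63 without the male WT library.

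Promoter sequences are shown for 3 members with a higher fitted level in HT (Slit2, Robo1 and Epha5) and 3 with a lower one (Unc5c, Epha8 and Robo4), chosen after their values were seen, so that the make-up of their start regions can be compared. Each is the 250 bases before the gene's annotated start, from RefSeq on GRCm38.p6, 5′ to 3′ on the gene's own strand, with GC boxes (GGGCGG, or CCGCCC for the other strand) in capitals. The counts themselves were made on mm9, so these positions belong to the sequences only.
Slit2 (chr5:47982905-47983154, + strand): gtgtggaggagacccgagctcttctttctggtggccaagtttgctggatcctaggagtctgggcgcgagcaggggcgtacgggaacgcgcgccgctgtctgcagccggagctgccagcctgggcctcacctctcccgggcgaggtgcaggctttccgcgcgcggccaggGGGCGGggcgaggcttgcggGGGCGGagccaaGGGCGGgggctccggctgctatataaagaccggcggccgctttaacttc
Robo1 (chr16:72662899-72663148, + strand): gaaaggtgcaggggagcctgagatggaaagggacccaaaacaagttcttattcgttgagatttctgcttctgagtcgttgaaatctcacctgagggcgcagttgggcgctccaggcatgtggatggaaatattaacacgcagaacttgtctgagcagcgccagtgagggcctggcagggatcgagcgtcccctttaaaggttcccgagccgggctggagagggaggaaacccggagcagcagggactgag
Epha5 (chr5:84417383-84417632, - strand): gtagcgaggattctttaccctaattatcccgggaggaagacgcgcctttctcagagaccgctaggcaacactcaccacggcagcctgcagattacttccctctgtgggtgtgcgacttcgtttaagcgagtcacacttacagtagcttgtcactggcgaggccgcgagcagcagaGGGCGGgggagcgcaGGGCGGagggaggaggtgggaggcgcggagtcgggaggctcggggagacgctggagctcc
Unc5c (chr3:141465314-141465563, + strand): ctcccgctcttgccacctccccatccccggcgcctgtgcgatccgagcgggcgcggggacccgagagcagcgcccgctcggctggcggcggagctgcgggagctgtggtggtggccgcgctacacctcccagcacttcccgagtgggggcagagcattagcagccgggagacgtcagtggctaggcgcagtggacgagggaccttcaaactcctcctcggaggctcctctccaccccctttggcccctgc
Epha8 (chr4:136956817-136957066, - strand): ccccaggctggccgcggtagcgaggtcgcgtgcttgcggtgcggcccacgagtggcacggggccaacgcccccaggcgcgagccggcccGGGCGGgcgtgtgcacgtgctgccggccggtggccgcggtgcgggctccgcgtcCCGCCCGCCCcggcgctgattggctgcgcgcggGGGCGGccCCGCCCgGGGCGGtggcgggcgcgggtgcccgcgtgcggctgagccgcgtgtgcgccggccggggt
Robo4 (chr9:37401722-37401971, + strand): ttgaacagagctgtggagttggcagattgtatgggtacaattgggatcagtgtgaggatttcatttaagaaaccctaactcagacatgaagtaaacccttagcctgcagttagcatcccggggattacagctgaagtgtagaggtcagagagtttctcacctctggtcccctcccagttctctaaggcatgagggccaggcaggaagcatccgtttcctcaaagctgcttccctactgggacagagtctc

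The windows of the 3 members higher in HT held 11 to 25 CpG dinucleotides and those of the 3 lower members 2 to 46. The median was 15.5 over the guidance gene windows and 6 over all promoter windows. The median share of G and C was 64.4% in the guidance gene windows and 52.4% in all windows. Epha8 held 46 CpG dinucleotides and 6 GC boxes at 84.0% G and C, whereas Robo4 held 2 CpG and 0 GC boxes. Slit2 had 25 CpG and 3 GC boxes, Epha5 20 and 2, Unc5c 23 and 0, and Robo1 11 and 0. Of the 68 members 58 had an entry in the RefSeq promoter table used here, with 74 starts in all (the promoters of Dcc, Efnb3, Ntn1, Plxna1, Plxna4, Sema3b, Sema3f, Sema6a, Slit1 and Unc5d were not analysed here), and 71.6% of those starts held a GC box, against 32.7% of all 32851 promoter windows of that length. Overlapping matches on a strand were each counted. The TATA motif (TATAAA, or TTTATA for the other strand) lay in 2 of the 74 windows, those of Slit2 and Efnb2, and in 12.4% of all windows. In Slit2 it is the tataaa near the 3′ end of the printed sequence. Both motif counts are descriptions of letters and say nothing of binding. All promoter windows were taken without regard to expression, whereas the members had passed a count minimum in this tissue. No set of other expressed genes was compared, so these differences cannot be read as a trait of guidance genes.

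Levels of the members were compared per length, as CPM per kilobase of the longest annotated transcript (CPM per kb). Sema7a, a semaphorin held on the membrane by a lipid anchor, was the highest of the 68 at 78.3 CPM per kb on average over the 4 libraries. Efnb3, a transmembrane ephrin, followed at 45.8. Sema4g at 29.6, Unc5b at 23.6 and Plxnb2 at 20.8 came next. At the low end stood Efna4 at 0.203, Robo3, a receptor known for midline crossing of hindbrain axons, at 0.298, and Epha2 at 0.362. Summed over its members, the semaphorin system held 323 and 335 CPM per kb in the male and female HT libraries, against 344 and 335 in the male and female WT libraries. The ephrin system summed to 147 and 149 in HT, against 142 and 121 in WT. The netrin system summed to 60.4 and 65.3 in HT, against 66.1 and 69.7 in WT. The slit system was the smallest in every library, with 17.4 and 19.1 in HT, against 17.1 and 11.3 in WT. The order of the 4 systems was the same in all 4 libraries, and the slit sum of the female WT library lay below the other 3 libraries, which lay close together.

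**Figure D2:**
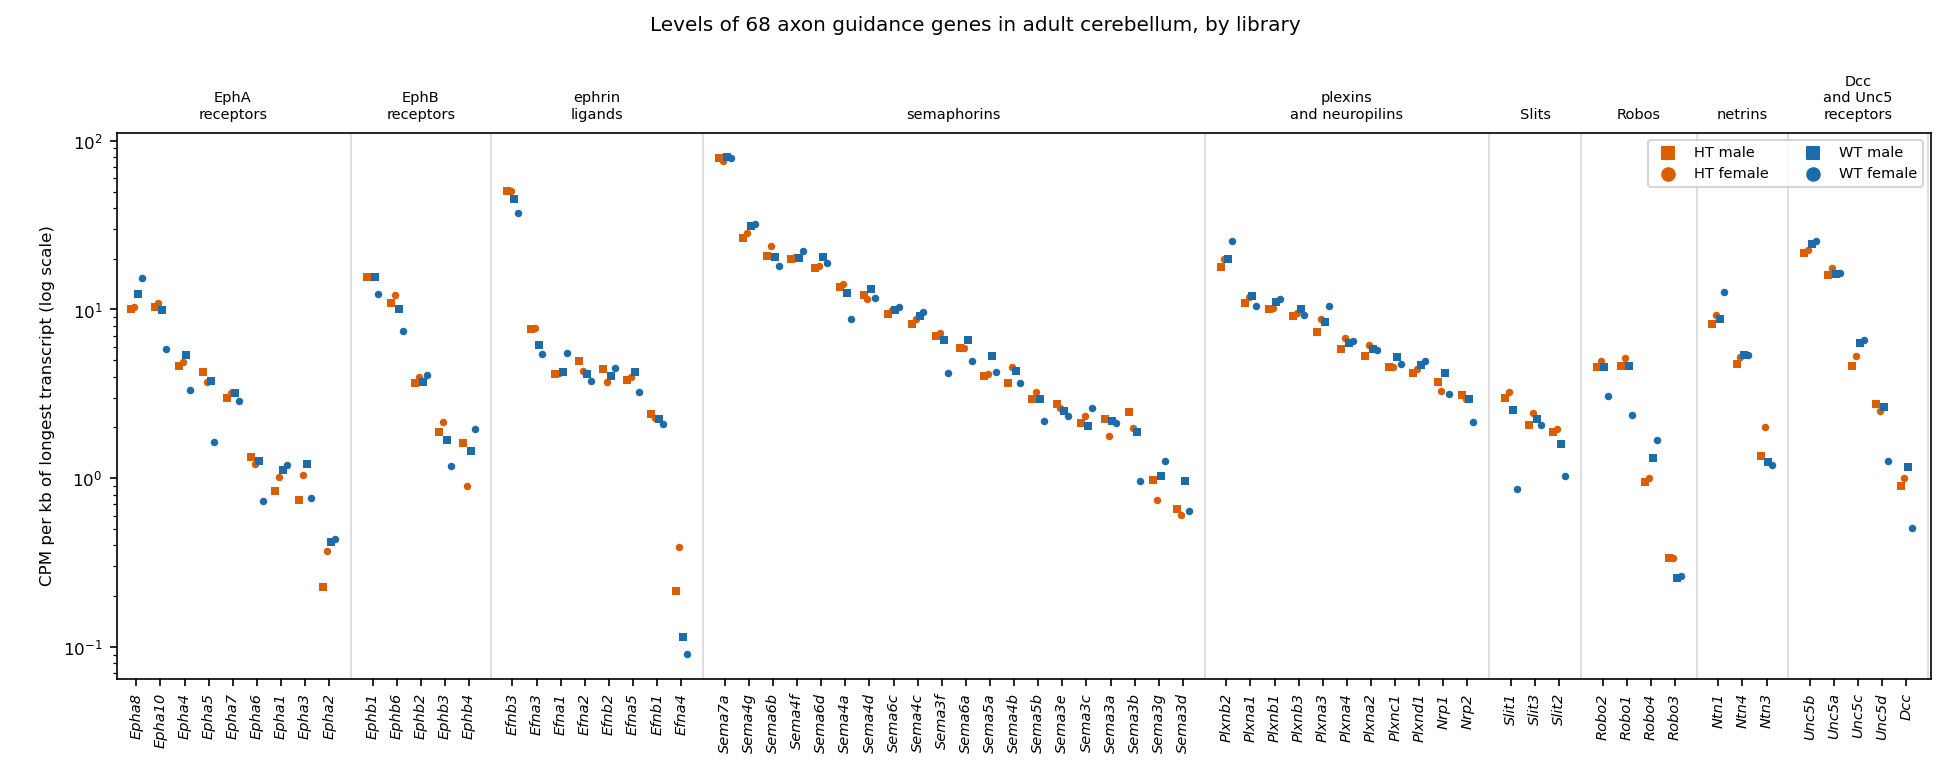
Level of each of the 68 guidance genes in each library, in CPM per kb of the longest transcript on a log axis, with genes grouped by role and ordered by mean level. Sema7a (78.3) and Efnb3 (45.8) lead, and the female WT library (blue circles) lies apart for genes such as Slit1, Robo1 and Epha5.

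In the slit system the secreted ligands Slit1 and Slit2 had levels in both HT libraries above both WT libraries. Slit1 stood at 17.1 and 18.4 CPM in the male and female HT libraries, against 14.3 and 4.90 CPM in the male and female WT libraries. The HT libraries and the male WT library lay near each other, and the female WT library was far below them. The fitted log2 fold change was 1.04 ± 0.45 (SE; edgeR, adjusted p = 0.500), made of 0.25 in males and 1.89 in females, and it was 0.30 without the female WT library. Slit2 stood at 18.7 and 19.5 CPM in the male and female HT libraries, against 15.8 and 10.2 CPM in the male and female WT libraries, in the same order, with a log2 fold change of 0.58 ± 0.20 (SE; edgeR, adjusted p = 0.296) and 0.27 without the female WT library. Slit3 stood at 10.8 and 12.7 CPM in the male and female HT libraries, against 11.8 and 10.9 CPM in the male and female WT libraries, where the groups overlapped, and its log2 fold change of 0.056 ± 0.20 (SE; edgeR, adjusted p = 0.947) turned to -0.0051 without the female WT library.

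Of the Slit receptors, Robo1 and Robo2, the main neuronal Robos, both had the female WT library as the lowest. Robo1 stood at 35.2 and 38.9 CPM in the male and female HT libraries, against 35.0 and 17.8 CPM in the male and female WT libraries, so that the males were alike and the difference came from the females. Its log2 fold change was 0.56 ± 0.29 (SE; edgeR, adjusted p = 0.544), with 0.0077 in males and 1.12 in females, and it was 0.079 without the female WT library and 1.06 without the male one. Robo2 stood at 39.0 and 42.4 CPM in the male and female HT libraries, against 39.2 and 26.3 CPM in the male and female WT libraries, a log2 fold change of 0.34 ± 0.17 (SE; edgeR, adjusted p = 0.500) that was 0.052 without the female WT library, and the groups overlapped. Robo3, with 34 and 27 counts in the male and female HT libraries against 21 and 27 in the male and female WT libraries, had a log2 fold change of 0.38 ± 0.42 (SE; edgeR, adjusted p = 0.781). Robo4, the Robo of endothelial cells, went the other way at 4.68 and 4.95 CPM in the male and female HT libraries, against 6.56 and 8.29 CPM in the male and female WT libraries. Both HT libraries lay below both WT libraries, the log2 fold change was -0.61 ± 0.25 (SE; edgeR, adjusted p = 0.368), and without the female WT library it was -0.45.

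**Figure D3:**
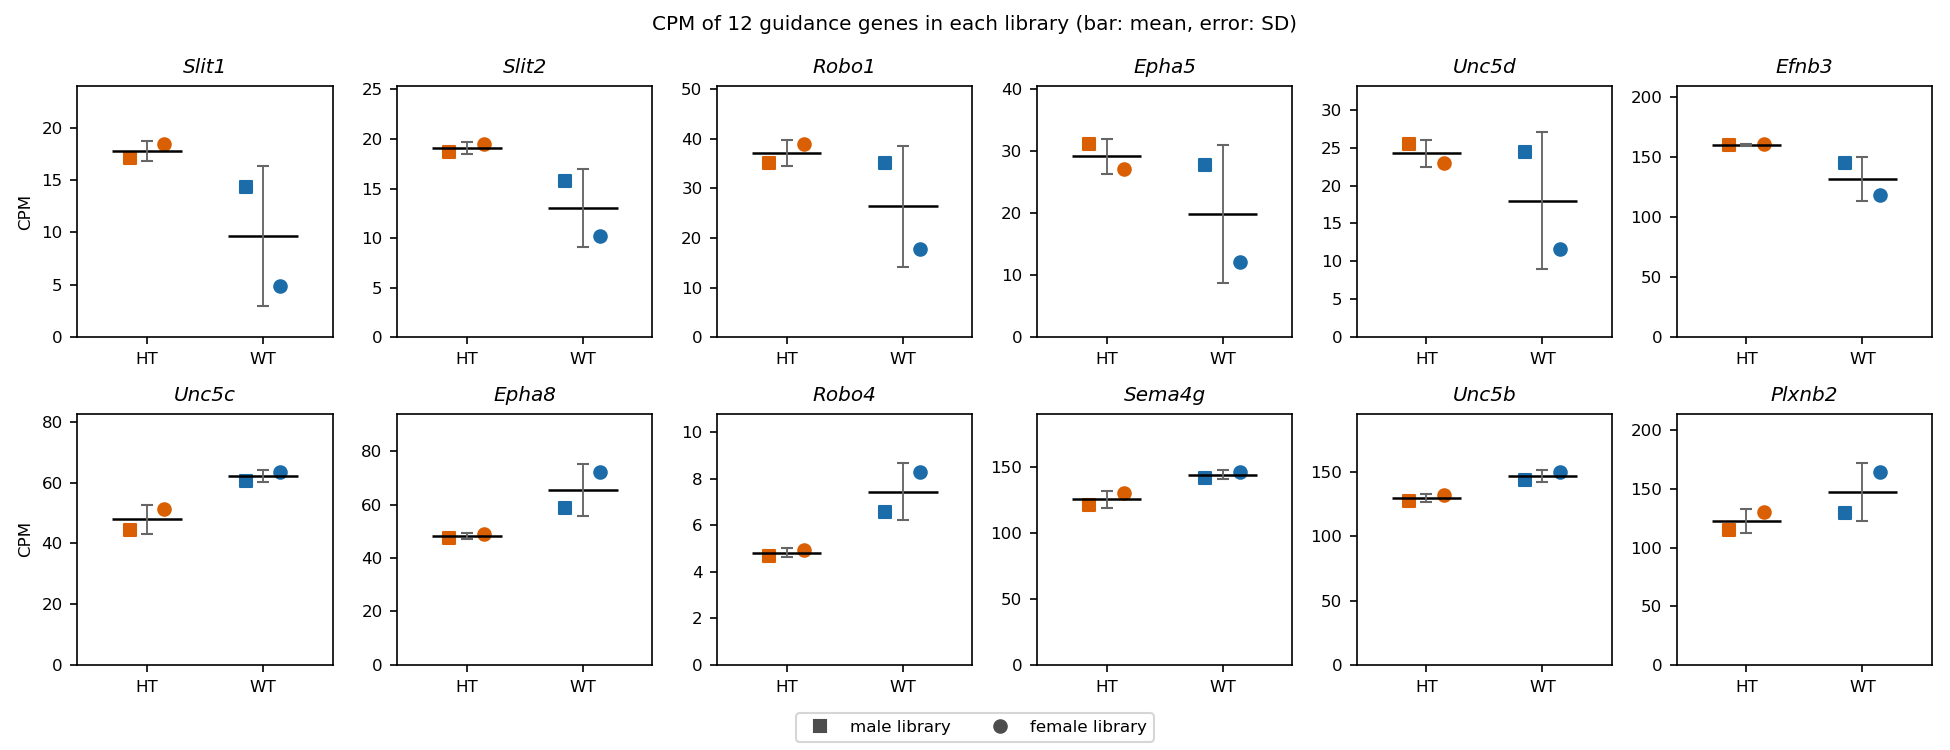
CPM of 12 guidance genes in each library, with HT left of WT in each panel, squares for males, circles for females, bars for the mean of 2 libraries and error lines for the SD. In the upper row the female WT library is the lowest of the 4, for example 4.90 CPM of Slit1, and in the lower row the HT mean is below the WT mean for each gene.

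Sums of some markers of other cells and regions shared a highest or lowest library, or the full library order, with several guidance genes. The guidance genes named beside them are examples. Over all tested genes the female WT library was the lowest of the 4 for 32.0% and the highest for 29.7%. Markers of neurons of the brainstem and midbrain, regions that border the cerebellum, were higher in HT for 13 of 15 genes and summed to 916 and 891 CPM in the male and female HT libraries, against 758 and 596 CPM in the male and female WT libraries. The female WT library was the lowest there too, as for Slit1, Slit2, Robo1, Robo2 and Epha5. Endothelial and mural markers were lower in HT for 15 of 16 genes and summed to 229 and 197 CPM in HT, against 250.5 and 374 CPM in WT, with the female WT library the highest, as for Robo4 and Ephb4. Granule cell markers were lower in HT for all 16 genes and summed to 5047 and 5599 CPM in HT, against 6462 and 7496 CPM in WT, the library order of Unc5c, Unc5b, Sema4g and Epha8. Purkinje cell markers were lower in HT for 15 of 16 genes and summed to 5416 and 5012 CPM in HT, against 5903 and 6989 CPM in WT. Choroid plexus markers were higher in HT for 9 of 10 genes and summed to 2698 and 1556 CPM in HT, against 1475 and 1465 CPM in WT, with the male HT library the highest. In males and females median log2 ratios were 0.16 and 1.10 for brainstem and midbrain markers and -0.084 and -0.85 for endothelial and mural ones. They were -0.38 and -0.42 for granule cell, -0.11 and -0.50 for Purkinje cell and 0.82 and 0.18 for choroid plexus markers. Of the 16 Purkinje cell markers 5 were higher in HT in males and 1 in females. Markers of the deep nuclei were higher for 7 of 10 genes, of oligodendrocytes for 12 of 14 and of their precursors for 5 of 8. Within males and females these counts were 7 and 7, 11 and 10, and 4 and 5. Microglia markers were higher for 11 of 12, with 12 in males and 4 in females, and median log2 ratios of 0.45 and -0.14. Meningeal fibroblast markers were higher for 8 of 10, with 8 in males and 4 in females, and medians of 0.53 and -0.042. Markers of GABAergic interneurons and of astrocytes and Bergmann glia were each higher for 4 of 12. No marker of these 12 lists was at 0 in all libraries. The part of these markers in the guidance gene values was not tested, and in whole tissue fewer cells of a type cannot be told apart from less RNA per cell.

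In the netrin system the repulsive Unc5 receptors went different ways. Unc5c, whose loss in the mouse causes a malformation of the rostral cerebellum, stood at 44.6 and 51.2 CPM in the male and female HT libraries, against 60.7 and 63.6 CPM in the male and female WT libraries. Both HT libraries lay below both WT libraries, and the log2 fold change was -0.38 ± 0.12 (SE; edgeR, adjusted p = 0.257), with -0.44 in males and -0.31 in females. It ranged from -0.49 to -0.28 as each library was left out. Unc5b, the most abundant of the 4 per kb, stood at 127 and 132 CPM in the male and female HT libraries, against 144 and 150.0 CPM in the male and female WT libraries, again without overlap, with a log2 fold change of -0.18 ± 0.10 (SE; edgeR, adjusted p = 0.541) and -0.15 without the female WT library. Unc5a, at 16.6 CPM per kb, stood at 64.2 and 70.0 CPM in the male and female HT libraries, against 64.5 and 65.7 CPM in the male and female WT libraries, where the groups overlapped, and its log2 fold change was 0.045 ± 0.11 (SE; edgeR, adjusted p = 0.921). Unc5d stood at 25.5 and 23.0 CPM in the male and female HT libraries, against 24.4 and 11.6 CPM in the male and female WT libraries. Only the female WT library was apart there, and the log2 fold change of 0.51 ± 0.22 (SE; edgeR, adjusted p = 0.425) became -0.0063 without it.

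Dcc, the receptor of netrin attraction, stood at 9.27 and 10.3 CPM in the male and female HT libraries, against 12.1 and 5.24 CPM in the male and female WT libraries, so that HT was below WT in males and above it in females. Its log2 fold change was 0.28 ± 0.33 (SE; edgeR, adjusted p = 0.807), and it turned to -0.31 without the female WT library and was 0.90 without the male WT library. Of the ligands, Ntn1, the classic secreted netrin, stood at 48.2 and 54.4 CPM in the male and female HT libraries, against 51.4 and 75.0 CPM in the male and female WT libraries, with the female WT library the highest and the others close together. Its log2 fold change of -0.28 ± 0.13 (SE; edgeR, adjusted p = 0.432) was -0.0051 without that library. Ntn4, a netrin of basement membranes, stood at 17.3 and 18.9 CPM in the male and female HT libraries, against 19.6 and 19.6 CPM in the male and female WT libraries, and Ntn3 at 6.85 and 10.1 CPM in the male and female HT libraries, against 6.32 and 6.01 CPM in the male and female WT libraries, and their log2 fold changes were -0.11 ± 0.16 (SE; edgeR, adjusted p = 0.838) and 0.44 ± 0.25 (SE; edgeR, adjusted p = 0.532). The Ntn3 value was 0.14 without the female HT library, which was the highest of its 4.

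In the ephrin system 5 of the 7 tested ligands had a higher fitted level in HT. Efnb3, known as a midline barrier to corticospinal axons, stood at 159 and 161 CPM in the male and female HT libraries, against 145 and 118 CPM in the male and female WT libraries. The HT libraries were alike and both lay above the WT libraries, with a log2 fold change of 0.29 ± 0.11 (SE; edgeR, adjusted p = 0.342) that was 0.15 without the female WT library. Efna3, a ligand with a lipid anchor, stood at 18.1 and 18.4 CPM in the male and female HT libraries, against 14.5 and 12.9 CPM in the male and female WT libraries, also without overlap. Its log2 fold change was 0.42 ± 0.17 (SE; edgeR, adjusted p = 0.372), with 0.32 in males, 0.51 in females and 0.33 without the female WT library. Efna2 stood at 10.6 and 9.22 CPM in the male and female HT libraries, against 8.87 and 8.05 CPM in the male and female WT libraries, a log2 fold change of 0.23 ± 0.21 (SE; edgeR, adjusted p = 0.738). The other ligands ran from -0.20 for Efna1 to 0.11 for Efnb1, with Efnb2 at -0.067 and Efna5 at 0.058, each smaller than its SE. Without the female WT library Efna1, Efnb1, Efnb2 and Efna5 had -0.018, 0.063, 0.018 and -0.14.

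Among the EphA receptors, which mostly bind ligands with a lipid anchor, Epha8 had the smallest p of all guidance genes for genotype. It stood at 47.6 and 49.0 CPM in the male and female HT libraries, against 58.6 and 72.3 CPM in the male and female WT libraries, with both HT libraries below both WT libraries. The log2 fold change was -0.43 ± 0.12 (SE; edgeR, adjusted p = 0.215), with -0.30 in males, -0.56 in females and -0.28 without the female WT library. Epha5 stood at 31.1 and 27.1 CPM in the male and female HT libraries, against 27.7 and 12.03 CPM in the male and female WT libraries, and Epha10, an Eph receptor without kinase activity, at 48.0 and 50.7 CPM in the male and female HT libraries, against 46.2 and 27.2 CPM in the male and female WT libraries. In both the female WT library was far below the rest, and the log2 fold changes of 0.65 ± 0.24 (SE; edgeR, adjusted p = 0.383) and 0.47 ± 0.20 (SE; edgeR, adjusted p = 0.433) were 0.076 and 0.094 without it. Epha2, Epha1 and Epha3 had fitted values of -0.54, -0.32 and -0.13 at mean levels of 0.362, 1.04 and 0.939 CPM per kb. Without the female WT library their values were -0.51, -0.27 and -0.46. Epha7, Epha4 and Epha6 had 0.035, 0.16 and 0.39, and -0.051, -0.18 and 0.0045 without that library.

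Of the EphB receptors, which bind the transmembrane ephrins, Ephb1 and Ephb6 were the most abundant. Ephb6, which lacks kinase activity, stood at 41.2 and 45.9 CPM in the male and female HT libraries, against 37.7 and 28.1 CPM in the male and female WT libraries, without overlap, and its log2 fold change was 0.42 ± 0.16 (SE; edgeR, adjusted p = 0.345), or 0.21 without the female WT library. Ephb1 stood at 73.1 and 73.0 CPM in the male and female HT libraries, against 72.3 and 57.5 CPM in the male and female WT libraries. The HT libraries and the male WT library lay close together, and the log2 fold change of 0.18 ± 0.12 (SE; edgeR, adjusted p = 0.608) was 0.013 without the female WT library. Ephb3 stood at 8.92 and 10.2 CPM in the male and female HT libraries, against 7.96 and 5.58 CPM in the male and female WT libraries, a log2 fold change of 0.52 ± 0.25 (SE; edgeR, adjusted p = 0.450) that was 0.26 without the female WT library. Ephb4, known as a receptor of venous endothelium, had 0.15 in males and -1.11 in females. Ephb2 had a fitted value of -0.033 ± 0.13 (SE), which turned to 0.030 without the female WT library.

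**Figure D4:**
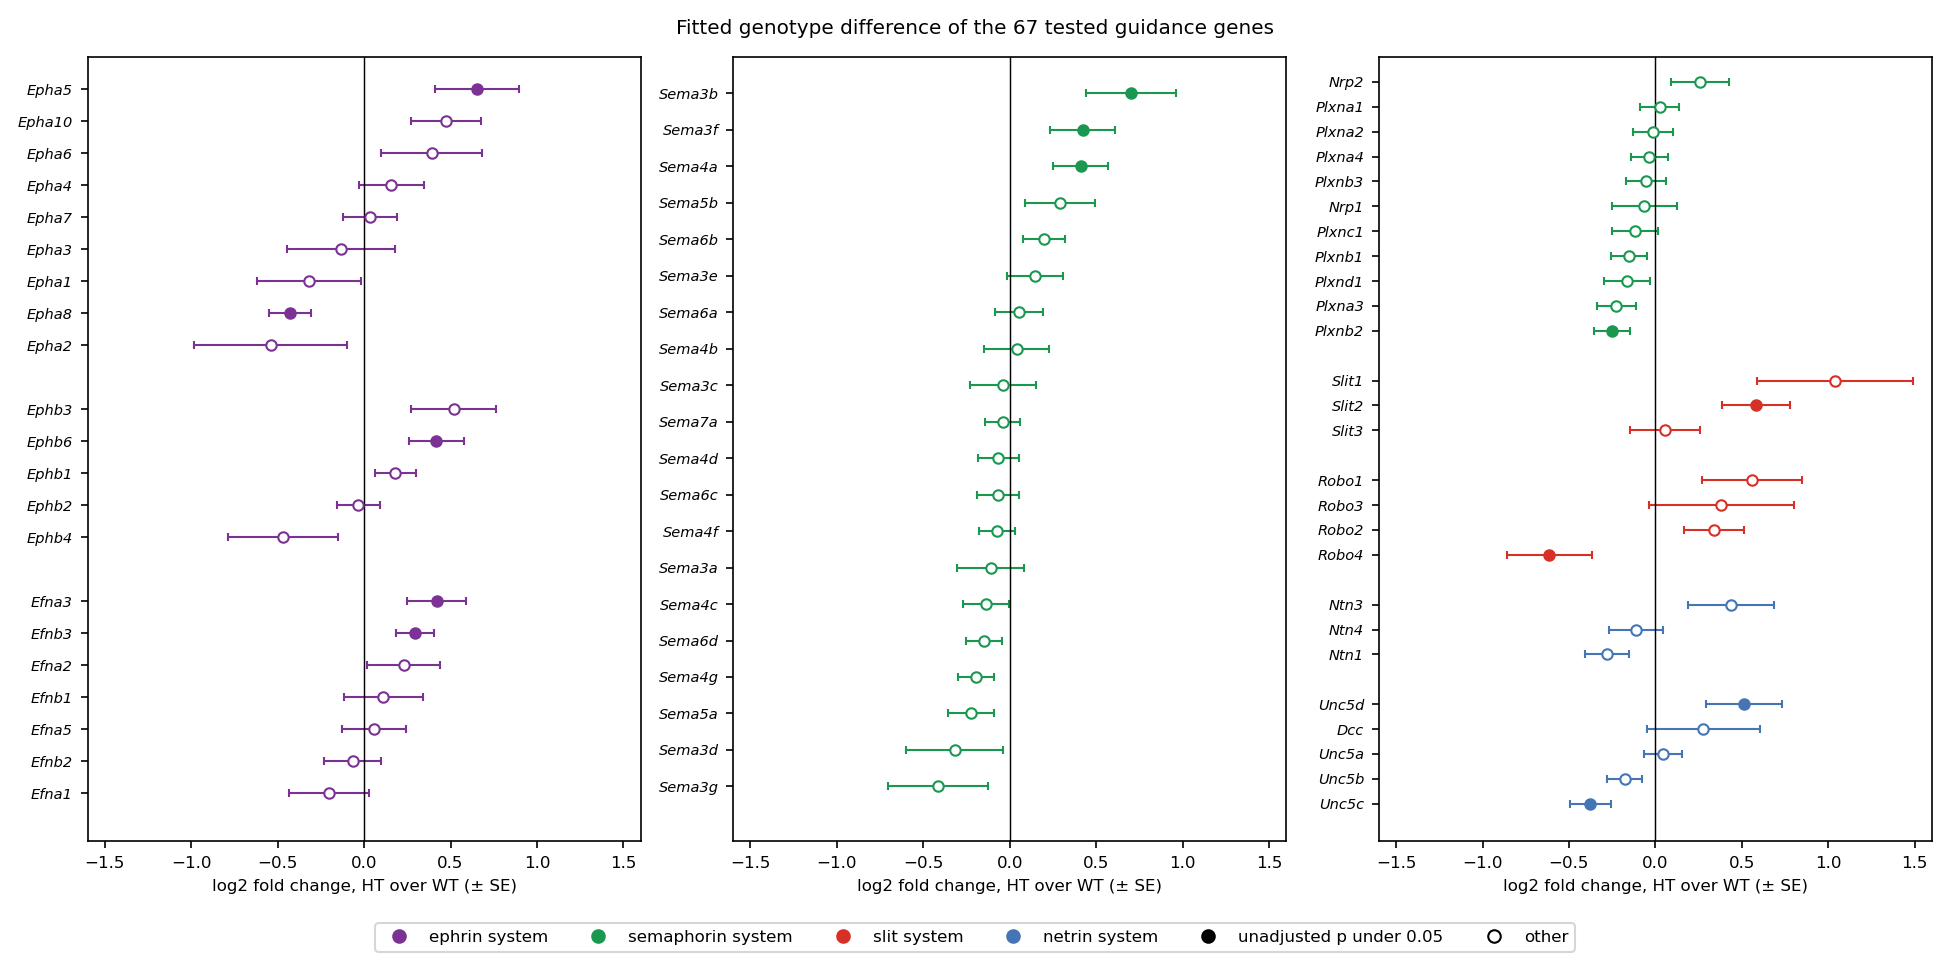
Fitted log2 fold change (HT over WT, horizontal axis) with its SE for each of the 67 tested guidance genes, grouped by role, with filled points for an unadjusted p under 0.05. No gene passed after adjustment, and 13 points are filled, 9 to the right of 0 and 4 to the left.

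The semaphorins with the smallest p were higher in HT, while the most abundant, Sema7a, had a fitted value near 0. Sema3b, a secreted semaphorin, stood at 8.48 and 6.77 CPM in the male and female HT libraries, against 6.44 and 3.30 CPM in the male and female WT libraries, with both HT libraries above both WT libraries. Its log2 fold change was 0.70 ± 0.26 (SE; edgeR, adjusted p = 0.335), with 0.39 in males, 1.01 in females and 0.25 without the female WT library. Sema3f, a secreted ligand that binds neuropilin-2, stood at 23.6 and 24.6 CPM in the male and female HT libraries, against 22.5 and 14.3 CPM in the male and female WT libraries, and Sema4a, a transmembrane semaphorin, at 43.6 and 45.6 CPM in the male and female HT libraries, against 40.2 and 28.1 CPM in the male and female WT libraries. In these the female WT library was again the lowest, and their log2 fold changes of 0.42 ± 0.19 (SE; edgeR, adjusted p = 0.423) and 0.41 ± 0.16 (SE; edgeR, adjusted p = 0.352) were 0.096 and 0.15 without it.

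Sema7a stood at 259 and 249.6 CPM in the male and female HT libraries, against 263 and 261 CPM in the male and female WT libraries, a log2 fold change of -0.041 ± 0.10 (SE; edgeR, adjusted p = 0.921). This most abundant guidance gene thus lay within a narrow range in all 4 libraries. Sema4g stood at 121 and 130.0 CPM in the male and female HT libraries, against 141 and 146 CPM in the male and female WT libraries, with both HT libraries below both WT libraries, and its log2 fold change was -0.19 ± 0.10 (SE; edgeR, adjusted p = 0.499). The other semaphorins ran from -0.42 for Sema3g to 0.29 for Sema5b, or -0.25 and 0.081 for these genes without the female WT library. Among the other semaphorins, Sema6a, which acts with plexin-A2 in granule cell migration, had 0.054 ± 0.14 (SE), and -0.15 without that library. Sema4d, a semaphorin of oligodendrocytes, had -0.066 ± 0.12 (SE), and -0.16 without it. Sema5a stood at 43.4 and 44.8 CPM in the male and female HT libraries, against 57.6 and 46.2 CPM in the male and female WT libraries, so that the male WT library was the high one, and its log2 fold change of -0.22 ± 0.13 (SE; edgeR, adjusted p = 0.557) was -0.39 without the female WT library and -0.066 without the male WT library.

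The plexins, the receptors of semaphorins, had small fitted values. Of 9 plexins 8 were lower in HT, with values between -0.25 and 0.026, and a median of -0.12, against 0.0063 over all tested genes. Within the sexes, 0 plexins were higher in HT in males and 4 in females, and 5 were lower in both. The plexin median was -0.055 without the male WT library and -0.081 without the female one, and the median ratio was -0.15 in males and -0.060 in females. Plxnb2, a class B plexin needed by granule cell precursors in the mouse, stood at 115 and 130.2 CPM in the male and female HT libraries, against 129.7 and 165 CPM in the male and female WT libraries. Its groups overlapped, and its log2 fold change of -0.25 ± 0.10 (SE; edgeR, adjusted p = 0.381) was -0.081 without the female WT library. Plxna3 stood at 51.0 and 60.9 CPM in the male and female HT libraries, against 58.4 and 72.9 CPM in the male and female WT libraries, a log2 fold change of -0.23 ± 0.11 (SE; edgeR, adjusted p = 0.484) that was -0.066 without that library. Plxna1 stood at 98.0 and 108 CPM in the male and female HT libraries, against 108 and 94.1 CPM in the male and female WT libraries, a log2 fold change of 0.026 ± 0.11 (SE; edgeR, adjusted p = 0.959) that turned to -0.079 without the female WT library. Plxnb1 and Plxnd1, a receptor of Sema3e in vessels and neurons, were lower in both sexes, with -0.15 ± 0.10 and -0.16 ± 0.14 (SE). Nrp2, the co-receptor of Sema3f, stood at 20.9 (male) and 19.8 CPM (female) in HT, against 19.9 (male) and 14.6 CPM (female) in WT. Its log2 fold change was 0.26 ± 0.17 (SE; edgeR, adjusted p = 0.595), and 0.032 without the female WT library. Nrp1 had -0.065 ± 0.19 (SE), and -0.27 without that library.

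The members were also counted by the order of their libraries, with no test against the other genes. In 19 of the 67 tested members both HT libraries lay above both WT libraries, where 22.1% of all tested genes did, and in 17 both lay below, where 22.6% did. The female WT library was the lowest of the 4 in 30 members, where 32.0% of all tested genes had it lowest, and the highest in 22, where 29.7% did. By system it was the lowest in 13 of 21 ephrin genes, 4 of 7 slit genes, 10 of 31 semaphorin genes and 3 of 8 netrin genes. The log2 ratio of HT over WT within a sex had the same sign in males and females for 48 members, of which 23 were higher in both, where 28.8% of all tested genes were, and 25 lower in both, where 29.5% were. The median ratio was 0.0077 in males and 0.69 in females for the slit system, and 0.056 and 0.29 for the ephrin system. It was -0.13 and -0.044 for the semaphorin system, and -0.13 and 0.019 for the netrin system. The difference between the sexes was not tested, since each sex has 1 library per genotype.

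**Figure D5:**
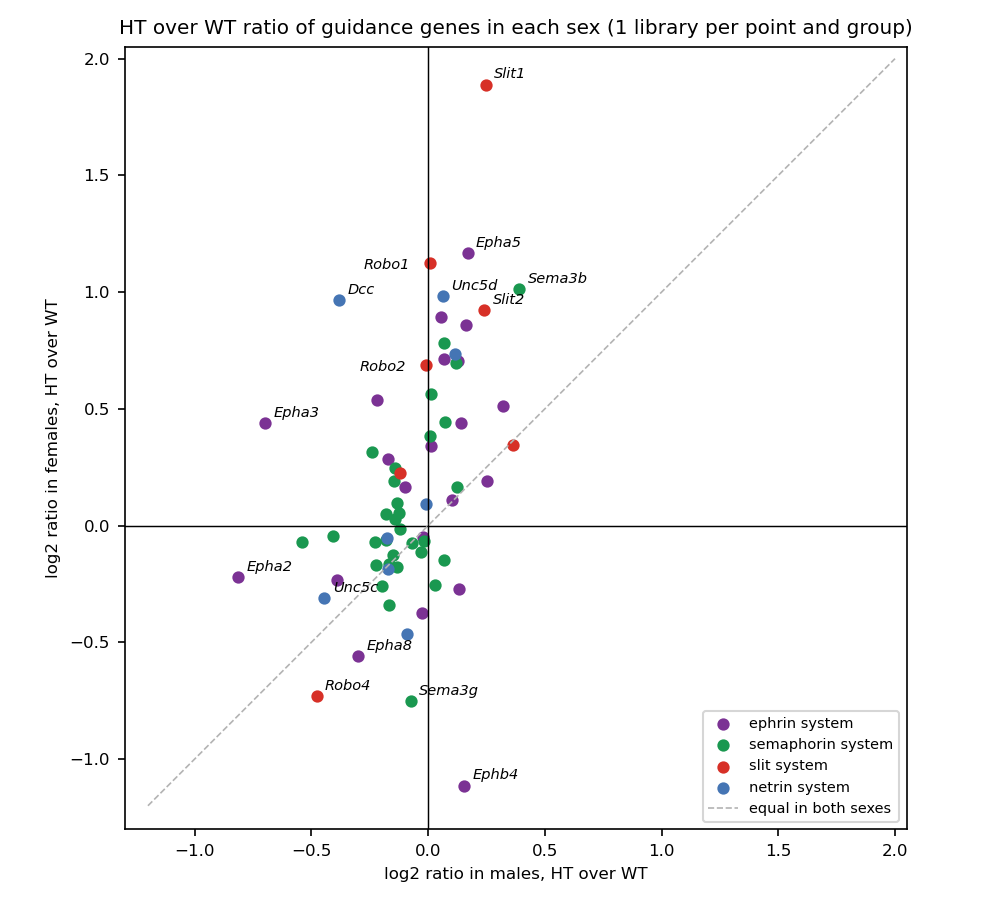
Log2 ratio of HT over WT in females (vertical axis) against that in males (horizontal axis) for the 67 tested guidance genes, coloured by system, from 1 library per genotype and sex. Slit1 (0.25 in males, 1.89 in females), Robo1, Epha5 and Unc5d lie far above the dashed line of equal ratios, whereas Robo4, Unc5c and Epha8 lie below 0 in both sexes.

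Between the sexes, compared in the same fit with genotype as the other term, 0 of the 67 tested guidance genes passed in edgeR, where 0.0595% of all tested genes did, and the smallest adjusted p was 0.994. DESeq2, limma-voom and the likelihood ratio test also called 0. At an unadjusted p under 0.05 there were 6, where 3.82% of all tested genes were. Ntn1, Plxna3 and Plxnb2 had female over male log2 fold changes of 0.36, 0.29 and 0.26, and Unc5d, Epha5 and Sema3b had -0.60, -0.68 and -0.63. In each of these 6 genes the female WT library was the highest or the lowest of the 4.

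Genes that act with the guidance receptors were described in the same way. Of 44 intracellular effectors, such as collapsin response mediators and Slit-Robo GTPase-activating proteins, 21 were higher and 23 lower in HT with a median of -0.016, and 0 passed the test in edgeR. Limk1 and Chn2 were called by DESeq2, which called 0.317% of all genes, by the likelihood ratio test, which called 1.10%, and by edgeR without the female WT library, which called 4.30%. With no low-count filter 4 effectors were called, and without the male WT library 13, where 2.92% and 17.5% of all genes were. At an unadjusted p under 0.05, 5 were higher, where 5.22% of all tested genes were, and 6 lower, where 6.46% were. Limk1, the kinase through which several receptors act on cofilin, stood at 179.8 and 173 CPM in the male and female HT libraries, against 126 and 115 CPM in the male and female WT libraries, without overlap, a log2 fold change of 0.55 ± 0.10 (SE; edgeR, adjusted p = 0.130). Chn2, a Rac-inactivating protein of granule cells, stood at 383 and 424 CPM in the male and female HT libraries, against 549 and 573 CPM in the male and female WT libraries, a log2 fold change of -0.47 ± 0.10 (SE; edgeR, adjusted p = 0.151). Both lay on the same side in each sex. Dpysl3, a collapsin response mediator, had 0.49 ± 0.14 (SE; edgeR, adjusted p = 0.213) and 0.23 without the female WT library, and Ablim1, an actin-binding protein, had -0.29 ± 0.10 (SE; edgeR, adjusted p = 0.307).

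Of 25 other guidance cues and co-receptors, 13 were higher and 12 lower with a median of 0.027, 0 passed in edgeR, DESeq2, limma-voom and the likelihood ratio test, and at an unadjusted p under 0.05, 2 were higher, where 5.22% of all tested genes were, and 2 lower, where 6.46% were. In edgeR 3 were called with no low-count filter (Dscam, Chl1 and Lingo1), 7 without the male WT library and 3 without the female WT library (Cntn2, Lrig2 and Chl1), where 2.92%, 17.5% and 4.30% of all genes were. Dscam, a netrin receptor of the immunoglobulin family, stood at 53.4 and 53.5 CPM in the male and female HT libraries, against 43.6 and 29.4 CPM in the male and female WT libraries, a log2 fold change of 0.57 ± 0.15 (SE; edgeR, adjusted p = 0.207) that was 0.29 without the female WT library and 0.86 without the male one. Lingo1, a co-receptor of the Nogo receptor, stood at 71.3 and 74.3 CPM in the male and female HT libraries, against 58.2 and 49.5 CPM in the male and female WT libraries, a log2 fold change of 0.44 ± 0.12 (SE; edgeR, adjusted p = 0.207). Neither overlapped between genotypes. The adhesion molecules Chl1 and Cntn2, which work with semaphorin receptors, had -0.36 ± 0.12 (SE; edgeR, adjusted p = 0.306) and -0.27 ± 0.11 (SE; edgeR, adjusted p = 0.350).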

How the data were processed

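The authors deposited 1 table of raw read counts per gene symbol with 1 column per library. Per the labels' protocols, stranded mRNA libraries were pooled and read from a single end over 100 bases in 1 lane. The submitters' processing notes list the build mm9 and STAR, featureCounts, FastQC and edgeR, with no versions. The sources used here do not say whether counting used the strand, so values of genes with an antisense overlap are uncertain. Genes passing filterByExpr by genotype (15117 of 24015) were scaled by TMM and fitted by robust quasi-likelihood in edgeR 4.0.16 (R 4.3.3), with terms for sex and genotype, which left 1 residual degree of freedom. Two-sided p-values were adjusted with the Benjamini-Hochberg method across the tested genes. The SE is the log2 fold change divided by the square root of F. CPM are counts scaled to the library total. With 3 counts as the floor, a gene with no count could have up to 0.146 to 0.188 CPM, which covers counting error only. Ratios within a sex used a prior count of 2. Transcript lengths came from GENCODE M21 and covered 99.3% of tested genes, and promoters from RefSeq. Members and lists were chosen with earlier results of these data known. Full values were given, in each of 9 role classes, for the 2 members of highest level per kb and the 3 of smallest p, and for 4 genes of smallest p in each of the other guidance lists; further members (Efna4, Dcc, Robo3 and Sema5a) were chosen after their values were seen. The alternatives were DESeq2 1.42.0 and its size factors, library totals, the likelihood ratio test, limma-voom (limma 3.58.1), no filter, 1 CPM in 2 libraries, genotype as the only term, 0.1 as the adjusted threshold, a member minimum of 100 counts, and each library left out. Scripts were tested on simulated data.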

Additional observations from a re-analysis of the deposited data

Results flagged for a closer look

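In 5 guidance genes the HT over WT ratio had opposite signs in males and females, and in each sex the 95% counting interval of the ratio (exact binomial, counting error only) left out 0. Each was lower in HT than in WT in males and higher in females. Dcc had a log2 ratio of -0.38 in males (interval -0.68 to -0.089) and 0.97 in females (interval 0.62 to 1.35). Epha3 had -0.70 in males and 0.44 in females, and Epha4 had -0.22 and 0.54. Sema4b had -0.24 in males and 0.31 in females, and Plxna1 had -0.15 and 0.19. The difference between the sexes was not tested, since there is 1 library per genotype and sex, and such intervals leave out the spread between animals. The share of all tested genes that meets this rule was not counted, so the 5 cannot be read as a trait of guidance genes.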

How the results depend on the processing

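The count of 0 guidance genes called for genotype was also 0 with DESeq2, its size factors, library totals, the likelihood ratio test, limma-voom, 1 CPM in 2 libraries, no sex term and an adjusted p of 0.1. With no low-count filter it was 5, and with a library left out it ran from 0 without either HT library to 25 without the male WT library. In those fits genotype is the only term, sex is partly mixed with it, and a lone library is assumed to vary like the others. Over all genes the count of 3 was 7 with DESeq2's size factors, 13 with library totals, 34 with DESeq2, 166 with the likelihood ratio test, 553 with no filter, 0 with 1 CPM in 2 libraries and 0 without the sex term, and 0 to 2730 with a library left out. The cause of these shifts was not tested. For sex the count of 0 guidance genes became 1 (Epha5) with no filter. With a library left out the ephrin median ran from 0.015 to 0.28, the slit median from 0.079 to 0.63, the semaphorin median from -0.12 to -0.038 and the netrin median from -0.11 to 0.030; under the other settings they moved by less than the spread between the sexes. Of 43 genes with full statistics, 5 turned sign with a library left out: Unc5a ran from -0.029 to 0.11, Unc5d from -0.0063 to 1.07, Plxna1 from -0.079 to 0.13, Dcc from -0.31 to 0.90 and Slit3 from -0.071 to 0.17. None turned under the other settings. No paired analysis by replicate number was possible because the labels carry none; the sex term of the fit sets each HT library against the WT library of the same sex.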
